A study of Mus musculus with 6 samples.

Results

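OCT4 binding in Esrrb-GFP high mouse embryonic stem cells (ESCs) was compared with that in Esrrb-GFP medium ones through the regions listed for the factor in each fraction. A region counted as bound in a fraction when its exact chromosome, start and end stood in that fraction's list. The high list held 12449 regions and the medium list 14464, and together they named 17121 distinct regions of the 23767 found over all 6 lists of the series. Of these, 9792 were shared by both fractions, 2657 were listed in high and missing from medium (21.3% of the high list), and 4672 were new in medium (32.3% of the medium list). Both shares serve below as the background for counts near genes.

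OCT4, the product of Pou5f1, is a POU-domain transcription factor without which pluripotent cells are neither formed nor maintained. It contacts the octamer sequence alone, or the composite Oct-Sox element together with SOX2, often at enhancers also bound by NANOG. ESRRB is an orphan nuclear receptor of the naive pluripotency network that varies between individual ESCs in serum and LIF, so that cells with high, medium or no ESRRB coexist in the same dish.

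The cells were E14Tg2a Esrrb-2a-GFPd-IBIH ESCs, a single targeted reporter line in which a destabilised GFP is made from the Esrrb locus, grown in GMEM with FCS and LIF. After formaldehyde fixation, high cells were sorted as the top 10% of GFP signal and medium cells as the 15% lying just above the GFP-negative cells, which formed a separate fraction. Chromatin from each fraction was immunoprecipitated with a goat polyclonal antibody to OCT4, and in parallel with an antibody to NANOG, and material from 3 ChIPs was pooled into each library. All 6 libraries, OCT4 and NANOG in high, medium and negative cells, come from this same reporter line.

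Each fraction had 1 library, so no difference between high and medium could be tested against replicates. The 95% Wilson intervals given with shares cover counting error over regions, not variation between cultures, sorts or ChIPs. The deposited lists hold positions without peak heights, and the depth of each library is unknown from them. A region left a fraction's list when its depth-normalised signal fell below a fixed share of the highest signal among the fractions, so "missing" means reduced relative to that maximum and not free of OCT4. For the same reason the OCT4 lists of high, medium and negative cells are not independent of each other.

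Sequences are shown from each class where a motif of OCT4 was present, and they were chosen for it, so its presence in them is no result. Most OCT4 regions have no such match, with either motif found at 31.3% of shared, 25.9% of missing and 21.0% of new regions. For genes described below, windows of 80 bp were read from the mouse genome (mm9, NCBIM37) around an octamer or Oct-Sox match that overlaps an OCT4 region. Capitals mark the match, and each window is written in the orientation of its motif. The octamer searched was ATGCAAAT without mismatches. The Oct-Sox element was the SOX part CATTGT or CTTTGT, any 1 base, then the POU part ATGCAAA, with up to 2 mismatches in all. The shared examples lie upstream of Pou5f1, downstream of Sox2, in an intron of Esrrb and upstream of Klf2.
Pou5f1, shared, chr17:35640962-35641041, minus strand: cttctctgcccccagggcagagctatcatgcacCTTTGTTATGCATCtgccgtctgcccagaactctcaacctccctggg
Sox2, shared, chr3:34552938-34553017, plus strand: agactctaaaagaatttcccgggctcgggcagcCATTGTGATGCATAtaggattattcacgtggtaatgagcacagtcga
Esrrb, shared, chr12:87811960-87812039, minus strand: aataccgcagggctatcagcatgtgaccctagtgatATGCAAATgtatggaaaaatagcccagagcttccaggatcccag
Klf2, shared, chr8:74835171-74835250, plus strand: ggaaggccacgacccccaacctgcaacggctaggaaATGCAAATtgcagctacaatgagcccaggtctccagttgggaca
The windows from regions missing in medium cells lie downstream of Esrrb, in an intron of Tcf7l1, a transcriptional repressor of the Wnt pathway, and in introns of Immp2l and Cd96.
Esrrb, missing, chr12:87867524-87867603, plus strand: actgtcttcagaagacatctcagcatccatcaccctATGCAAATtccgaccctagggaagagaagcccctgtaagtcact
Tcf7l1, missing, chr6:72597480-72597559, plus strand: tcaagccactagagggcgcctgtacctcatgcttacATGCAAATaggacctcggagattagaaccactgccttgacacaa
Immp2l, missing, chr12:41986373-41986452, minus strand: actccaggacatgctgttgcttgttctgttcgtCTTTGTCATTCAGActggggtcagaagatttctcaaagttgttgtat
Cd96, missing, chr16:46102014-46102093, minus strand: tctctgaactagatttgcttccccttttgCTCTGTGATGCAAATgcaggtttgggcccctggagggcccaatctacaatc
The windows from regions new in medium cells lie downstream of Sox2, in an intron of Tcfcp2l1, just upstream of Zfp42, the gene for the naive marker REX1, and in an intron of Otx2, a factor of the formative state.
Sox2, new, chr3:34555173-34555252, minus strand: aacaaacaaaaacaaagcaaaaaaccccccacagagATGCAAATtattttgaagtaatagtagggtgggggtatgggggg
Tcfcp2l1, new, chr1:120544725-120544804, minus strand: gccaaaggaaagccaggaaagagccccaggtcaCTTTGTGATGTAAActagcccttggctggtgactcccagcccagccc
Zfp42, new, chr8:44392506-44392585, plus strand: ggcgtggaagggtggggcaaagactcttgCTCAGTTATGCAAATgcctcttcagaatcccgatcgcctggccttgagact
Otx2, new, chr14:49282644-49282723, minus strand: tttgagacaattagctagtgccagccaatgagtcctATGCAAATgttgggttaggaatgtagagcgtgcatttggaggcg
In the Cd96 and Zfp42 windows the octamer and an Oct-Sox match overlapped.

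Most OCT4 sites of high cells were kept in medium cells. Of the high list, 78.7% (95% interval 77.9 to 79.4) was listed again in medium and 21.3% (20.6 to 22.1) was missing. Of the medium list, 67.7% (66.9 to 68.5) was shared and 32.3% (31.5 to 33.1) was new. New sites thus outnumbered missing ones.

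The classes differed in region width. The median width was 120 bp for shared, 80 bp for missing and 60 bp for new regions, and the smallest regions of 40 bp made up 12.3% of shared, 24.4% of missing and 26.8% of new ones. Read the other way, 35.0% of the 40 bp regions of high cells were missing from medium, against 26.2% at 60 to 80 bp, 18.2% at 100 to 140 bp, 14.4% at 160 to 240 bp and 11.2% at 260 bp or wider. The share of medium regions that were new went from 51.1% at 40 bp to 13.9% at 260 bp or wider. Wide sites were therefore mostly shared between high and medium cells, and narrow ones were missing or new more often. Widths are those of peaks merged over all datasets, so a region called in several libraries can be wider for that reason alone, and the part of this in the differences was not tested.

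Base composition separated missing from new sites. In the 200 bp around the centre the median GC content was 48.5% for shared, 47.0% for missing and 50.5% for new regions, against 44.5%, 43.5% and 45.0% in windows placed 10 kb downstream. Among regions of high cells, 33.5% (29.7 to 37.4) of those under 40% GC were missing from medium, compared with 637 of 3540 (16.8 to 19.3%) at 50 to 55% GC and 14.8% (9.44 to 22.4) at 60% or more. Among regions of medium cells, the new share went the opposite way, from 21.0% (17.6 to 24.9) under 40% GC to 59.2% (52.9 to 65.2) at 60% or more. AT-rich sites were thus missing more often and GC-rich sites new more often.

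The composition pattern was also present away from promoters and in both narrow and wide regions. Over 1 kb from a transcription start, the missing share was 33.6% under 40% GC and 17.4% at 50 to 55%, and the new share was 20.7% under 40% GC and 60.1% at 60% or more. In regions of 100 bp or wider the missing share went from 25.9% to 12.7% between under 40% and 60% GC or more, and in regions of 40 to 80 bp from 43.3% to 16.7%. Between the same limits the new share went from 14.1% to 54.3% in regions of 100 bp or wider, and from 30.5% to 63.0% in regions of 40 to 80 bp. Sites without an octamer or Oct-Sox match went from 24.3% to 60.5%, and sites with one from 18.2% to 45.0% (25.8 to 65.8). CpG dinucleotides followed the same order, with means of 1.31, 1.17 and 1.66 per 100 bp in shared, missing and new regions. With 1 library per fraction, a difference in base composition between the libraries and a difference between the cells cannot be told apart.

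**Figure D1:**
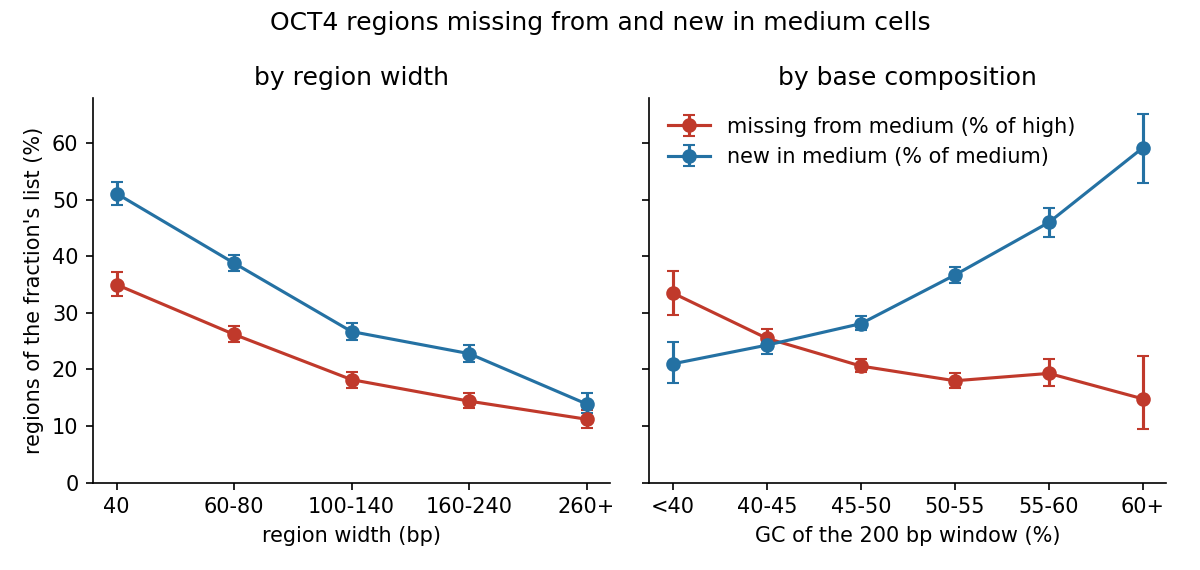
Share of the high list that was missing from medium (red) and of the medium list that was new (blue), in percent, by region width in bp (left) and by GC content of the 200 bp window (right). Points are shares and bars are 95% Wilson intervals. Both shares fall with width, from 35.0% to 11.2% missing and 51.1% to 13.9% new, while over GC content the new share climbs from 21.0% to 59.2% and the missing share declines from 33.5% to 14.8%.

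New sites lay closer to genes. Their median distance to the nearest annotated transcription start was 11992 bp, compared with 15513 bp for shared and 17845 bp for missing regions. Within 1 kb of a start lay 12.5% (11.6 to 13.5) of new, 9.00% (8.45 to 9.58) of shared and 8.54% (7.54 to 9.67) of missing regions. Of the medium regions within 1 kb of a start, 39.8% were new, against 26.3% of those over 100 kb away. The missing share changed little over the same distances, from 20.5% to 23.2%. Introns held 35.1%, 35.3% and 34.3% of shared, missing and new regions, and 53.7%, 54.3% and 50.4% lay between genes.

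Missing and new regions were spread over the genome. By chromosome the missing share ranged from 16.2% on chromosome 11 to 26.4% on chromosome X, and the new share from 28.3% on chromosome 16 to 36.9% on chromosome 17, leaving out chromosome Y with its 2 shared regions. Another OCT4 region of either list lay within 5 kb of 31.5% of shared, 31.7% of missing and 33.1% of new regions. That nearest neighbour was itself shared for 56.0%, 58.0% and 56.6% of them, close to the 57.2% of shared regions among all 17121. A missing site therefore did not have more missing neighbours than a shared site did, with 14.6% (12.4 to 17.2) and 15.9% (14.7 to 17.2).

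NANOG was listed in high cells at 31.5% (30.6 to 32.5) of shared, 22.1% (20.6 to 23.7) of missing and 9.10% (8.31 to 9.96) of new OCT4 regions. In medium cells it was listed at 1758 of 9792 shared regions (17.2 to 18.7%), 10.9% of missing and 5.07% of new ones, and in negative cells at 0.776%, 0.301% and 0.449%. Among regions of at least their own list's median width, NANOG in high cells was listed at 46.2% of shared, 45.4% of missing and 20.3% of new regions, so there shared and missing regions no longer stood apart while new ones still did. New OCT4 sites were thus mostly outside NANOG binding, with 90.6% (89.8 to 91.4) of them listed for NANOG in neither high nor medium cells, against 67.9% of shared and 77.8% of missing regions. NANOG was seldom gained in medium at any OCT4 region. Of the regions without NANOG in high cells, it was listed in medium at 12 of 4247 new ones (0.283%), 52 of 6704 shared ones (0.776%) and 67 of all 13021 (0.515%).

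**Figure D2:**
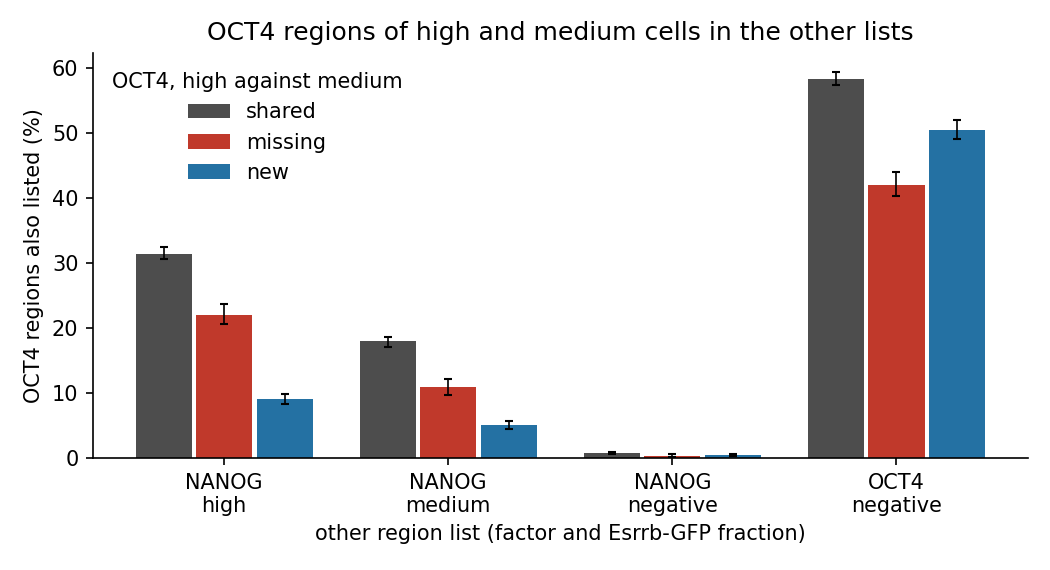
Percent of shared (grey), missing (red) and new (blue) OCT4 regions that were also listed for NANOG in high, medium or negative cells, or for OCT4 in negative cells. Bars are shares with 95% Wilson intervals. NANOG in high cells was listed at 31.5%, 22.1% and 9.10% of the 3 classes, and OCT4 in negative cells at 58.4%, 42.1% and 50.5%.

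At sites that carried both factors in high cells, NANOG left the list in medium more often than OCT4 did. Of these 3675 regions, 1706 (46.4%) kept both factors in medium, 1382 (37.6%) kept OCT4 alone, 287 (7.81%) kept NANOG alone and 300 (8.16%) kept neither. Whether OCT4 stayed or went made a small difference for NANOG, which was kept at 55.2% (53.5 to 57.0) of the shared and 48.9% (44.9 to 52.9) of the missing OCT4 regions that had it in high cells. The OCT4 and NANOG lists come from different libraries and antibodies, so these counts also carry differences between the ChIPs.

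OCT4 was missing from medium at 16.0% (14.8 to 17.2) of its high regions that carried NANOG and at 23.6% (22.7 to 24.5) of those that did not. Width moved with this difference. NANOG was listed at 22 of the 1849 OCT4 regions of 40 bp and at 988 of the 1487 regions of 260 bp or wider. At 40 bp OCT4 was missing at 2 of these 22 regions and at 35.4% of the regions without NANOG, and at 60 to 80 bp at 23.6% with NANOG and 26.5% without. At 100 to 140 bp the missing share was 18.1% with NANOG and 18.2% without, at 160 to 240 bp 14.9% and 13.9%, and at 260 bp or wider 12.0% and 9.42%. From 100 bp upward, then, OCT4 was missing about as often with NANOG as without.

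OCT4 in negative cells was listed at 58.4% (57.4 to 59.4) of shared, 42.1% (40.3 to 44.0) of missing and 50.5% (49.1 to 52.0) of new regions. The 1119 missing regions listed again in negative cells were thus listed for high and negative but not for medium cells, where the signal was reduced and OCT4 not necessarily absent. With NANOG in high cells, 18.4% (15.5 to 21.7) of missing regions were listed again in negative cells, against 48.8% (46.7 to 51.0) without NANOG. Among shared regions the same shares were 49.1% and 62.7%, and among new ones 35.1% and 52.1%. OCT4 sites with NANOG were therefore the ones listed less in negative cells in every class.

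Octamer and Oct-Sox matches were most frequent at shared sites. An octamer lay within 100 bp of the centre of 10.1% (9.51 to 10.7) of shared, 8.92% (7.89 to 10.1) of missing and 8.13% (7.38 to 8.95) of new regions. These compare with 9.38% of all OCT4 regions and 1.33% of windows 10 kb downstream. For the octamer, the interval of missing regions overlapped those of shared and of new regions. An Oct-Sox match was found at 24.9% (24.1 to 25.8), 19.6% (18.1 to 21.1) and 15.0% (14.0 to 16.0), against 21.4% of all regions and 1.76% downstream. The same motifs with their letters reversed matched 0.0467% and 0.321% of all regions. Both strands were searched for every motif, and the 2 motifs can overlap since the POU part holds most of the octamer.

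The fewer mismatches the best Oct-Sox match of a window had, the less often the site was missing or new. Of high regions with a full match, 12.0% (5.62 to 23.8) were missing from medium, compared with 16.5% with 1 mismatch, 410 of 2277 (16.5 to 19.6%) with 2, 20.3% with 3 and 23.8% (22.8 to 24.9) with 4 or more. The new share of medium regions followed, from 17.0% (9.20 to 29.2) over 21.2%, 22.7% and 25.2% to 3028 of 7569 (38.9 to 41.1%). OCT4 in negative cells was listed at 83.1% (71.5 to 90.5) of the 59 full matches and at 48.1% (47.0 to 49.1) of the regions with 4 or more mismatches. These groups were not matched for base composition, with which the new share climbs, and the part of composition was not tested. Regions with an octamer or Oct-Sox match can be set beside the rest at like GC. At 40 to 45% GC the new share was 23.8% with a match and 24.7% without, and at 45 to 50% GC 22.0% and 30.8%. The missing shares were 21.1% and 28.2%, then 17.7% and 22.0%.

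**Figure D3:**
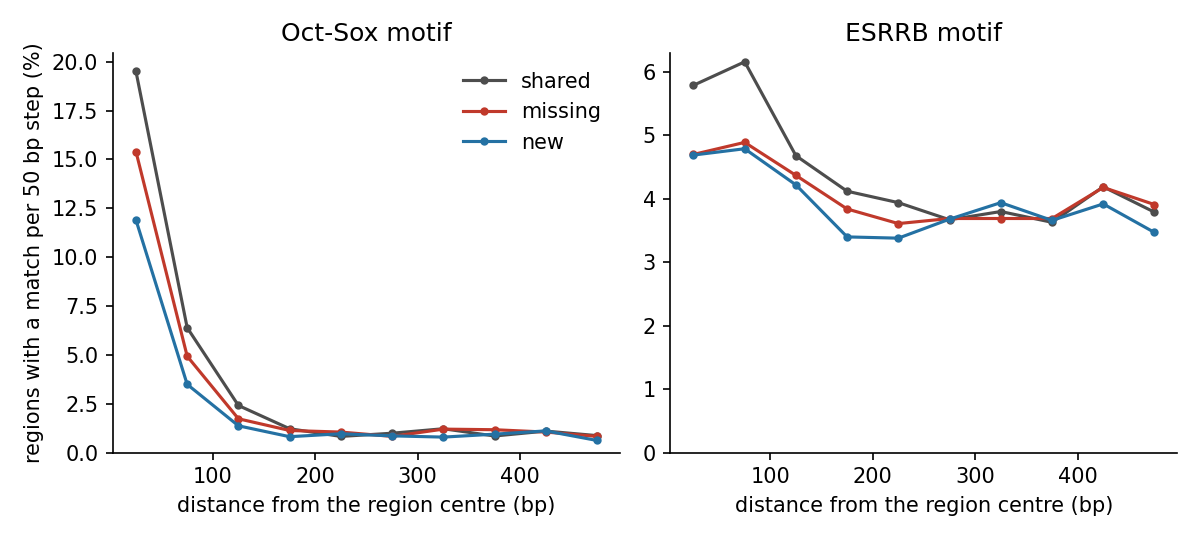
Percent of shared (grey), missing (red) and new (blue) OCT4 regions with an Oct-Sox (left) or ESRRB (right) match in each 50 bp step away from the region centre, in bp, with both sides combined. In the first 50 bp, Oct-Sox matches stand at 19.5%, 15.4% and 11.9% and ESRRB matches at 5.79%, 4.70% and 4.69%, and the classes come together further out.

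Matches to the ESRRB motif TCAAGGTCA, with up to 1 mismatch, were less tied to the region centre. They lay in 11.2% (10.6 to 11.8) of shared, 8.92% (7.89 to 10.1) of missing and 8.73% (7.96 to 9.58) of new windows, against 10.2% of all OCT4 regions and 7.11% of windows 10 kb downstream. Without mismatches the shares were 1.31%, 1.32% and 1.13%, which do not separate the classes.

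ESRRB matches did separate the sites by their listing in negative cells, in the opposite direction to octamer and Oct-Sox matches. Among shared regions, 15.0% (13.9 to 16.1) of those absent from the negative list had an ESRRB match and 8.45% (7.76 to 9.20) of those present. Among missing regions the shares were 12.0% (10.4 to 13.7) and 4.74% (3.64 to 6.14), and among new regions 11.4% (10.1 to 12.7) and 6.14% (5.24 to 7.18). Octamer or Oct-Sox matches ran the other way, with 25.6% and 35.3% of shared, 22.5% and 30.6% of missing, and 14.0% and 28.0% of new regions. Only motif letters were searched, and ESRRB binding was not measured in these libraries.

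**Figure D4:**
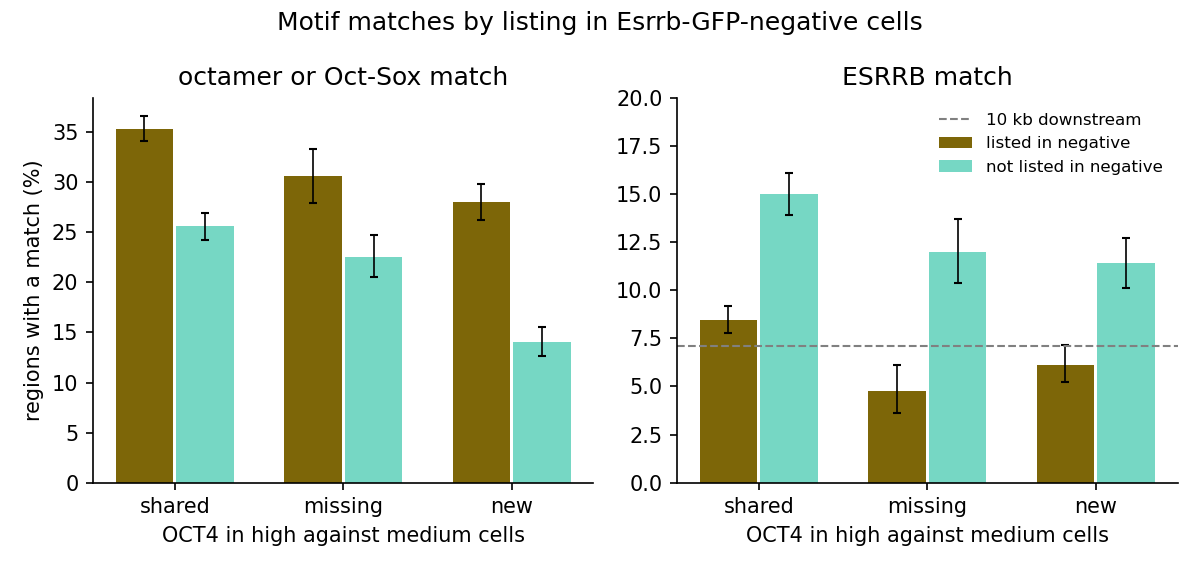
Percent of regions with an octamer or Oct-Sox match (left) and with an ESRRB match (right), for shared, missing and new OCT4 regions that were listed (brown) or not listed (green) for OCT4 in negative cells. Bars are shares with 95% Wilson intervals, and the dashed line marks the 7.11% of windows 10 kb downstream with an ESRRB match. In each class the brown bar is the higher on the left and the lower on the right.

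NANOG moved with the ESRRB matches, and its part was looked at by splitting the regions. Without NANOG in high cells, ESRRB matches were found at 12.0% of shared regions absent from the negative list and 7.10% of those present. The shares without NANOG were 11.0% and 4.45% for missing regions, and 9.53% and 5.70% for new ones. The regions of 100 bp or wider were taken whether or not NANOG was listed. There, ESRRB matches were found at 17.7% of shared regions absent from the negative list and 9.06% of those present. For missing regions these shares were 13.7% and 4.07%, and for new ones 14.6% and 7.16%. The order was thus the same with NANOG set aside and among wide regions.

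Among the other motifs, the intervals of missing and new regions stood apart for SOX and E-box matches and overlapped for the rest. SOX matches (CTTTGTT or CATTGTT), which overlap the SOX part of the Oct-Sox element, lay in 17.1%, 15.5% and 12.2% of shared, missing and new windows, against 8.80% downstream. KLF matches (GGGCGTGG or GGGTGTGG) lay in 4.16%, 3.65% and 4.24%, against 2.31% downstream, and TEAD matches (ACATTCC) in 4.89%, 3.91% and 3.81%, against 2.72%. AP-1 matches (TGANTCA) were at 8.13%, 8.77% and 8.63%, against 6.20%. OTX matches (TAATCC), bound by OTX2, were at 8.22%, 7.90% and 7.98%, no higher than the 8.67% downstream. E-box matches (CACGTG) were at 2.37%, 1.92% and 3.21%, against 2.49% downstream, and their letters reversed matched 3.94% of all OCT4 regions, more than the motif itself. STAT matches (TTCCNGGAA) lay in 0.806% of all OCT4 regions and 0.520% of downstream windows, and in 0.508% when reversed. ETS matches (CCGGAAGT) were few, at 0.337%, 0.188% and 0.471% of the classes with overlapping intervals, and lay in 0.350% of all regions, 0.199% downstream and 0.765% when reversed. Over all OCT4 regions, SOX, KLF, TEAD, AP-1 and STAT letters were more frequent than both downstream and reversed, ETS letters were more frequent than downstream alone, and OTX and E-box letters were about as frequent as downstream. Reversing the E-box and ETS letters removes their CG dinucleotide, so for these motifs the reversed share is not a like background.

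Some genes had missing and new regions side by side. Within 20 kb of a gene body, with distances taken from region centres in the text below, 8832 protein-coding genes had an OCT4 region of high or medium cells, and 718 of them had both a missing and a new one. Of the 7056 genes with a region in high cells, 947 (13.4%) had every one of them missing from medium, and 214 of these had a new region nearby. Of the 8099 genes with a region in medium cells, 1776 (21.9%) had new regions only.

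Near 86 genes of 10 lists for pluripotency, signalling and lineage, 23 of 182 high regions were missing from medium (12.6%, 8.57 to 18.2), against the background of 21.3%. The lists were chosen with earlier results of these data known. Region width, with which the missing share falls, was not matched between list and background, and its part in the difference was not tested. New regions were 83 of 242 (34.3%, 28.6 to 40.5), near the background of 32.3%. For each of the 10 lists taken alone, the 95% intervals of both shares contained their backgrounds. At least 1 region lay near 70 of the genes, a missing region near 18 and a new one near 46. Every high region was missing near 2 of them, Sox3 and Tcf7l2, each with a single region in high cells.

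**Figure D5:**
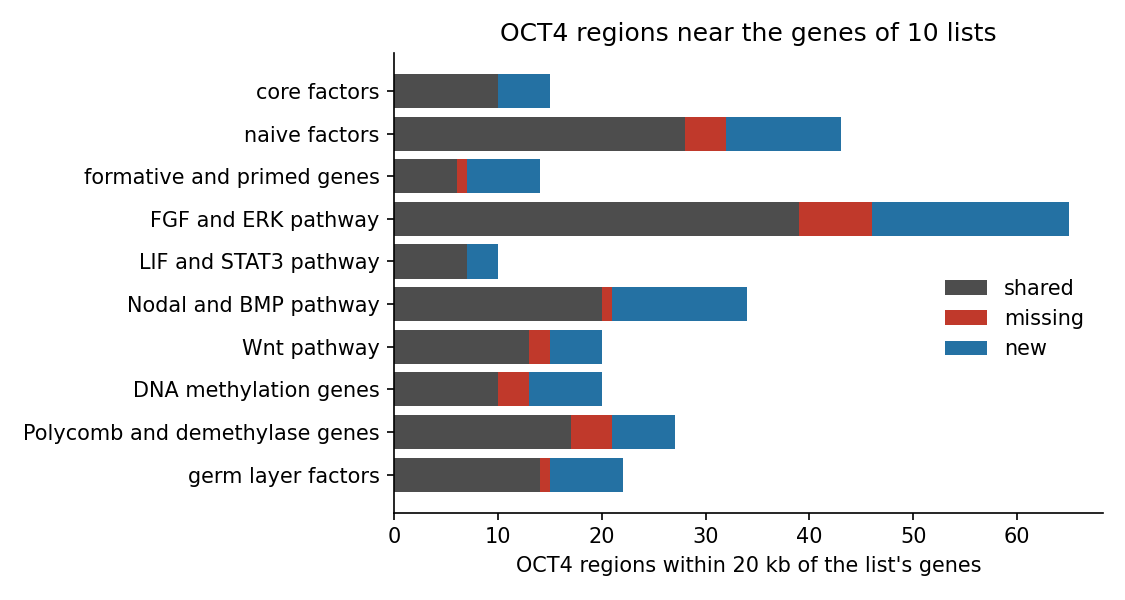
Number of OCT4 regions within 20 kb of the genes of each list, as bars stacked from shared (grey), missing (red) and new (blue) regions. The core factors and the LIF and STAT3 pathway have no missing region. Of the 65 regions of the FGF and ERK pathway, 33 lie in the annotated span of Fgfr2, which is 3009069 bp long.

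The core factors had 10 shared, 0 missing and 5 new regions. Pou5f1 had 3 shared and 2 new regions, Sox2 5 and 1, and Nanog 2 and 2. The count of 0 missing of 10 high regions allows a share of up to 27.8%, above the background, and the 5 new of 15 medium regions (33.3%, 15.2 to 58.3) were near the background of 32.3%. At Nanog, a new region of 420 bp (chr6:122652512-122652931) lay 4785 bp upstream of the start, next to a shared region of 300 bp (chr6:122653112-122653411). It was listed for NANOG in high and medium cells and was not listed for OCT4 in negative cells. NANOG was thus listed there in both fractions and OCT4 in medium cells alone. Absence from a list means a reduced signal there, not a lack of OCT4. At Pou5f1 the new regions lay 3640 and 19060 bp upstream, and at Sox2 the new region with the octamer shown above lay 3859 bp downstream. These 3 were also listed in negative cells.

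Naive factors had 28 shared, 4 missing and 11 new regions. The missing share of 12.5% (4.97 to 28.1) and the new share of 28.2% (16.5 to 43.8) have intervals that contain the backgrounds. Esrrb itself, whose locus drives the sorted reporter, kept 5 intronic regions, had 1 missing region, the 40 bp octamer site 4994 bp downstream shown above, and had a new intronic region of 220 bp. Dppa3, which encodes STELLA, a maternal factor that protects DNA methylation in the zygote, kept 5 of 5 regions and Klf2 4 of 4. Zfp42 had a new region of 320 bp with its centre 149 bp upstream of the start, and its 200 bp window held octamer, Oct-Sox, ESRRB and KLF matches. Tcfcp2l1, a naive transcription factor, had a missing intronic region of 360 bp (chr1:120539332-120539691) and a new one of 200 bp (chr1:120544652-120544851), both listed for NANOG in high cells alone and neither for OCT4 in negative cells. At Prdm14, a regulator that holds back FGF signalling and DNA methylation, the missing region of 280 bp (chr1:13118112-13118391) had its centre 1008 bp upstream of the start, with NANOG in high cells and an ESRRB match. The missing sites of the list were near Esrrb, Tcfcp2l1, Prdm14 and Nr5a2, each of which also had a new one.

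Formative and primed genes had few OCT4 regions, 14 in all, of which 7 were new and 1 missing. Otx2 had 1 new intronic region of 80 bp with the octamer shown above, absent in negative cells. Pou3f1, which encodes the POU factor OCT6, had 2 new regions 3994 and 6984 bp upstream, both listed in negative cells as well. Foxd3 had 2 shared and 2 new regions, including 1 of 600 bp 5878 bp upstream, and Zic2 had 1 shared and 2 new. Near Sox3 the only region, of 60 bp and 3523 bp downstream, was missing from medium and listed again in negative cells. The new share, 7 of 13 medium regions, has an interval of 29.1 to 76.8% that contains the background of 32.3%.

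Among signalling genes, the FGF and ERK list had 7 missing of 46 high and 19 new of 58 medium regions. The annotated span of Fgfr2, an FGF receptor gene, covers 3009069 bp and alone held 33 regions. They lay up to 2945951 bp from its annotated start, and how many of them concern Fgfr2 itself is unknown. Without Fgfr2 the list had 3 missing of 24 and 8 new of 29. Spry4, which encodes a feedback inhibitor of the pathway, had 2 missing, 3 shared and 1 new, and Etv5, an ERK-responsive ETS factor, had 7 shared, 1 missing and 2 new. Socs3, which encodes the feedback inhibitor of LIF and STAT3 signalling, had 2 shared regions and 2 new ones of 520 and 180 bp at 5571 and 6561 bp upstream, both already carrying NANOG in high and medium cells. The LIF and STAT3 list had 0 missing of 7 regions, and that count leaves room for a share of up to 35.4%, above the background.

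The Nodal and BMP list had 1 missing of 21 high regions and 13 new of 33 medium regions. Nodal, the ligand, had 2 shared and 3 new regions, at 2298 and 1188 bp upstream and inside an intron. Its inhibitors Lefty1 and Lefty2 had 3 shared and 3 new, and 1 shared and 1 new. Tdgf1, which encodes the coreceptor CRIPTO, had the list's missing region, with its centre 40 bp upstream of the start, besides 2 shared and 3 new regions. New regions were thus present at ligand, inhibitors and coreceptor alike, and the new share of 39.4% (24.7 to 56.3) contains the background.

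Wnt genes had 2 missing of 15 high and 5 new of 18 medium regions, with 6 shared, 1 missing and 3 new at Tcf7l1 and 5 shared and 1 new at Lef1. Among DNA methylation genes, Tet1, a 5-methylcytosine dioxygenase, had 4 shared, 2 missing and 4 new regions. Both missing regions of Tet1, of 80 and 200 bp, carried NANOG in high cells and were absent from the negative list, and 2 of the new ones held an octamer. Dnmt3b, a de novo methyltransferase gene, had 2 shared and 2 new regions, 1 of them with NANOG in high and medium cells. Polycomb and demethylase genes had 4 missing of 21 and 6 new of 23, and the missing regions of Kdm3a and Eed were intronic, 240 bp wide and carried NANOG in high cells. Those of Jarid2 and Mtf2 lay upstream, were 80 and 60 bp wide and had no NANOG in high cells, and the Mtf2 region was listed again in negative cells.

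Germ layer factors had 1 missing of 15 high and 7 new of 21 medium regions. Eomes, a T-box factor of mesendoderm, had a single region, new in medium, 680 bp wide and 2262 bp downstream, which was also listed in negative cells. Gsc, a homeobox factor of the organiser, had 2 new regions and none in high cells. T had 3 shared regions only, and Pax6 had 6 shared, 1 missing and 1 new.

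Genes with the most missing regions were Adam19 (5 of 7 high regions), Frmd4a (5 of 8), Gm12166 (5 of 6, the same intervals as its neighbour Adam19), Immp2l (5 of 13) and Arhgap26 (4 of 12). Ties were cut in order of symbol, so other genes with 4 missing regions may be left out. The missing regions of Adam19 stood together in the first part of the gene, at 2188 to 15278 bp from the start, and measured 40, 360, 80, 100 and 100 bp. They had no NANOG in high or medium cells, as held for 77.8% of all missing regions. At Immp2l they were spread over an annotated span of 1305899 bp with no new region. Immp2l, Frmd4a and Arhgap26 are long genes, and a long body collects more regions.

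Genes with the most new regions were Gm20388 (16, over an annotated span of 4434882 bp), Fgfr2 (11, over one of 3009069 bp), Hoxb4 (8), Elmo1 (7) and Pax7 (7). Hoxb4 and Pax7 are developmental regulators, and Hoxb4 is 4955 bp long, so its 8 new regions lay close together in the Hoxb cluster, beside 1 shared and 1 missing. The new regions of Hoxb4 and Pax7 had no NANOG in high or medium cells, and 4 of 8 and 5 of 7 of them were listed in negative cells. Of all new regions, 90.6% likewise had no NANOG in either fraction and 50.5% were listed in negative cells. Every high region was missing at 63 protein-coding genes with at least 2 of them. Those listed first by number of high regions were Cd96, Fam124b, Gpr98, Hoxc10 and Hoxc9, with 3 each. Ties here and among genes with 7 new regions were cut in order of symbol, so others with as many may be left out. Hoxc9 and Hoxc10 share the same 3 missing regions, all listed again in negative cells, as were 42.1% of all missing regions. Near Hoxc10 lay 5 new regions. Hoxb4, Hoxc9 and Hoxc10 were picked by these same counts, and both missing and new regions lay near each of them.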

How the data were processed

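ChIP-seq for OCT4 and NANOG was done by the authors on 3 sorted fractions of 1 mouse ESC line, with 1 library for each factor and fraction. Per the submitters' processing notes, reads were aligned with Bowtie to mm9. Per the study's methods, peaks were called with SISSRs in GeneProf, overlapping peaks were merged over all datasets, and a peak was dropped from a fraction in which less than 50% of its highest depth-normalised signal was retained. The deposited lists hold chromosome, start and end of each region, with no signal, score or read count, so depth and the precision it gives are unknown. Starts were read as counted from 0 and are printed from 1.

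OCT4 regions of high and medium cells were matched by exact coordinates. Shares carry 95% Wilson intervals (statsmodels 0.14.6), and no test was made between fractions. Sequence came from the NCBIM37 genome through pysam 0.24.0 and samtools 1.23.1, and genes and transcription starts from GENCODE vM1. Motifs were scanned on both strands within 100 bp of region centres, in windows 10 kb downstream, and with reversed motifs, and 1 region without a readable window was left out. Genes were assigned within 20 kb of the gene body. Of the listed genes 86 were found in the annotation, and Sox1 was not analysed here. All list members with a region were counted, and those with the most regions or with regions on 1 side were described, along with the 5 protein-coding genes with the most missing, the most new, or all high regions missing. Ties among these were cut in order of symbol. Sequences were taken from up to 4 described genes per class, in list order, where a match overlapped the region outside exons and chromosome 18. The members and gene lists were chosen with earlier results of these data known. The class matching was tested on the OCT4 high list itself, with regions dropped and shifted copies added. Motifs planted in random sequence and intervals with known answers were also tested. Python 3.11.15, numpy 2.4.6, scipy 1.17.1 and matplotlib 3.10.9 were used. Alternatives for region definition, width, chromosomes, start distance, annotation, motif window, mismatches and gene distance were recomputed.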

Additional observations from a re-analysis of the deposited data

How the results depend on the processing

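Of 102 alternative values, 35 stayed within the 95% interval of the reported value, among them every value on autosomes alone. Values with an overlap of at least 1 bp in place of exact coordinates also count among the 35. No listed interval overlapped another, so that setting could only return the same values and checks nothing. The order of the classes is given where it changed. Region width had the widest reach. With regions wider than 40 bp, 19.0% of high regions were missing and 28.5% of medium regions new, NANOG in high cells stood at 35.7% of shared, 29.1% of missing and 12.2% of new regions, 20.5% of high regions without NANOG were missing, and 32.3% of shared regions had an octamer or Oct-Sox match. With regions of at least their own list's median width, the shares were 15.3% missing and 22.7% new, NANOG 46.2%, 45.4% and 20.3%, OCT4 in negative cells 34.3% of missing and 48.7% of new, and 15.5% missing without NANOG, beside 15.1% with it. Joining regions within 500 bp gave 19.2% missing and 29.9% new.

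Within 5 kb of a start lay 26.1% of shared, 23.9% of missing and 31.2% of new regions, and within 1 kb of protein-coding starts 7.34%, 7.26% and 10.1%. Octamer or Oct-Sox matches stood at 23.1%, 18.9% and 15.4% of the classes within 50 bp, at 36.9%, 31.4% and 25.9% within 250 bp, and at 47.6%, 43.3% and 37.9% with 1 mismatch allowed in the octamer and 1 fewer in Oct-Sox. ESRRB matches stood at 5.25%, 4.52% and 4.26% within 50 bp, at 21.7%, 19.2% and 18.2% within 250 bp, and at 1.31%, 1.32% and 1.13% without mismatches, where the classes lost their order. Median GC content over 250 bp either side was 47.2%, 46.0% and 48.6%. Genes with every high region missing were 14.9%, 12.1% and 14.8% at 5 kb, at 50 kb and with the closest gene only, and genes with new regions only 23.5% and 17.0% at 5 and 50 kb.

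Further settings were chosen after seeing the data. Lists without Fgfr2 gave 11.9% missing and 33.8% new. ESRRB matches in regions absent from and present in the negative list were 7.36% and 3.74% for shared, 6.31% and 2.06% for missing and 5.71% and 2.84% for new regions within 50 bp. Within 250 bp they were 26.5% and 18.2%, 24.1% and 12.6%, and 22.5% and 13.9%, and without mismatches 2.09% and 0.752%, 2.15% and 0.179%, and 1.90% and 0.381%. The order held in each setting. No paired analysis was possible because every fraction has a single library per factor, so none could be left out.

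With no read counts, depth and distance from the authors' threshold could not be examined, so how near each missing or new region lay to it is unknown. High and medium cells, their libraries and their sorts cannot be told apart here.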
